A study of Canis lupus familiaris with 6 samples.

Results

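The genes described here are the receptor chains for interleukin 4 (IL4) and interleukin 13 (IL13), with the kinases and the transcription factor that carry their signal: IL13RA2, IL13RA1, IL4R, IL2RG, STAT6, JAK1 and TYK2. They were chosen as IL13RA2 and its known signalling partners. IL13RA2 was chosen on measured values, namely its higher level in tumorigenic lines, so its group difference is a description with no test. Every probe set annotated to 1 of these symbols alone was taken. That gave 16 probe sets for the 7 genes, of 42924 non-control probe sets in all, and the brightest probe set stands for its gene.

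The values come from 6 canine primary osteosarcoma lines, osteosarcoma being a malignant tumour of bone, with 1 Affymetrix array for each. The tumorigenic group (n = 3) is UWKOS1, UWKOS3 and UWKOS7, which grew as tumours when placed in mice. The non-tumorigenic group (n = 3) is UWKOS2, UWKOS6 and UWKOS8, which did not. All 6 lines were cultured in the same medium with calf serum, received no agent, and were harvested below full confluency; the RNA is from these cultures, not from transplants. The age and sex of the source dogs and the strain of the recipient mice are not given in the sources used here, and each line stands for 1 culture. Values are the deposited log2 values, and a difference is the tumorigenic mean minus the non-tumorigenic mean.

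IL4 and IL13 bind overlapping receptors. IL4R pairs with IL2RG, the common gamma chain, to form the type I receptor for IL4, and with IL13RA1 to form the type II receptor, which answers both cytokines. JAK1, TYK2 and related kinases sit on the cytoplasmic tails and phosphorylate STAT6, which then enters the nucleus. IL13RA2 binds IL13 with high affinity, has a short tail without the usual kinase docking site, and is known both as a decoy and as an antigen of several tumours. The genes for IL13RA2, IL13RA1 and IL2RG lie on the X chromosome.

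Of the osteoblast markers the matrix genes COL1A1, COL1A2 and SPARC were bright and several others were dim, and leukocyte genes were mostly dim. COL1A1, COL1A2 and SPARC had group means between 12.69 and 14.52, while ALPL, IBSP, DMP1 and PHEX did not reach the filter for dim probe sets, a mean log2 value of 6.07 over the 6 arrays. SPP1 missed it too, though it read 9.76 in UWKOS1, against at most 3.30 in the other lines. RUNX2 and BGLAP passed the filter but lay near it, at 5.84 to 6.52 and 5.32 to 6.64 over the 6 lines. Of 18 measured leukocyte markers 3 lay above that filter, and the leukocyte antigen PTPRC was below it. Some markers below it were brighter in some lines, and those given here were named after their values were seen. LCP1 read 8.48 in UWKOS2 and 9.004 in UWKOS6, and at most 5.86 elsewhere. CD3G read 7.58 in UWKOS2 and at most 4.61 elsewhere, and CORO1A read 7.22 in UWKOS7. The median over those 18 markers was 4.92 to 5.08 in the tumorigenic and 5.03 to 5.27 in the non-tumorigenic lines. The log2 ratio of the 3' to the 5' probe set of a GAPDH control, a sign of how complete the RNA copies were, is called the GAPDH end ratio here and comes from 1 of 2 such control pairs. It was 0.78 in UWKOS6 and 0.90 in UWKOS8 and lay between 0.40 and 0.61 in the other lines.

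IL13RA2 was present at very different levels in the 3 tumorigenic lines and dim in all 3 non-tumorigenic ones. Its only probe set read 8.46 in UWKOS1, 10.45 in UWKOS3 and 6.35 in UWKOS7. It read 3.71 in UWKOS2, 3.97 in UWKOS6 and 3.57 in UWKOS8. The groups did not overlap: UWKOS7, the lowest tumorigenic line, lay 2.38 above UWKOS6, the highest of the others. Each array was hybridised with RNA from a whole culture, so fewer cells with the transcript and less of it per cell cannot be told apart.

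The IL13RA2 means were 8.42 ± 2.05 (SD, n = 3) and 3.75 ± 0.21 (SD, n = 3), a difference of 4.67. Set against the non-tumorigenic mean, UWKOS7 was 6.08-fold, UWKOS1 26.2-fold and UWKOS3 104-fold higher. Without detection calls the non-tumorigenic values may be background, so these folds are uncertain in size. With all 6 lines the mean of the probe set was 6.08, just above the filter value of 6.07, and it passed the filter only through the tumorigenic group. With the GAPDH end ratio as a covariate the difference was 2.89, with that of the other GAPDH pair 4.28, and without UWKOS6 and UWKOS8 4.71.

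The order of the IL13RA2 values was UWKOS3, UWKOS1, UWKOS7, then the 3 non-tumorigenic lines, which lay within 0.41 of each other and have no order beyond that small spread. Neighbouring tumorigenic lines were separated by 1.99 and 2.11. The spread among tumorigenic lines was wide for a tested gene. An SD as large or larger was found for 94 of 9145 tested genes, or 1.03%, where the median SD was 0.30. Genes below the filter are not counted, and IL13RA2 passed it only through these lines. Some genes below it had a larger SD, such as SPP1 at 3.89. By the size of its rise IL13RA2 was 7th among the 9145 tested genes. A gap of 2 or more between the lowest tumorigenic and the highest non-tumorigenic line was found for 15 of them, IL13RA2 included. This rank and this gap rest on the contrast that chose IL13RA2, so they describe it and add no support.

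**Figure D1:**
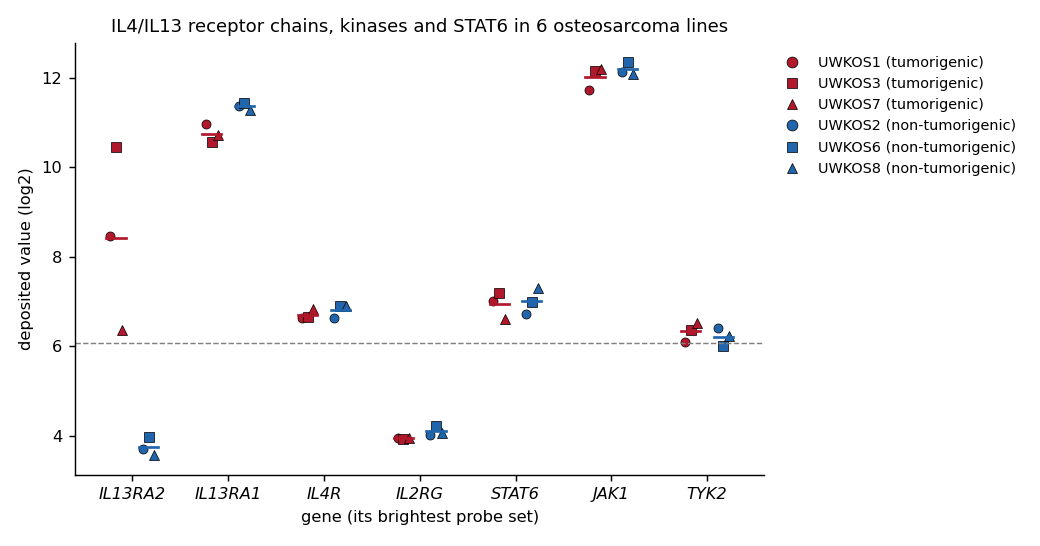
Deposited log2 values of the 7 genes, each by its brightest probe set; points are single lines (red tumorigenic, blue non-tumorigenic), short bars are group means, and the dashed line is the filter value of 6.07. IL13RA2 spans 3.57 to 10.45, and no other gene shown spans more than 0.87.

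The other 6 genes moved little between the lines. Their differences were at most 0.62 in size, and their ranges over the 6 lines at most 0.87. With IL13RA2 included, 2 of the 7 genes were higher on average in the tumorigenic lines and 5 were lower, with a median difference of -0.11, against 0.03 over all tested genes.

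IL13RA1, the chain that IL13 shares with the type II receptor, was lower in the tumorigenic lines on its brightest probe set. It read 10.96 in UWKOS1, 10.57 in UWKOS3 and 10.72 in UWKOS7. The non-tumorigenic lines read 11.37 in UWKOS2, 11.43 in UWKOS6 and 11.29 in UWKOS8. The groups did not overlap, with a gap of 0.33, and the difference was -0.62, with means of 10.75 ± 0.20 (SD, n = 3) and 11.37 ± 0.07 (SD, n = 3). The line richest in IL13RA2, UWKOS3, had the lowest IL13RA1 value.

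The probe sets of IL13RA1 disagreed on the size of this shift. The next brightest read 8.12, 7.45 and 7.56 in UWKOS1, UWKOS3 and UWKOS7 against 8.08, 7.96 and 7.50 in UWKOS2, UWKOS6 and UWKOS8, a difference of -0.14. The dimmest of the 3 differed by -0.09. On both, the groups overlapped, and UWKOS1 was the highest of all 6 lines. The mean over the 3 probe sets differed by -0.28.

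IL4R, the chain common to both receptor types, had 1 probe set and near-equal values. It read 6.64 in UWKOS1, 6.64 in UWKOS3 and 6.83 in UWKOS7, and 6.63 in UWKOS2, 6.91 in UWKOS6 and 6.90 in UWKOS8. The groups overlapped, and the difference of -0.11 was smaller than the range within the non-tumorigenic lines. Its sign turned with the GAPDH end ratio or the mean of 4 control end ratios as covariate, and without UWKOS6 and UWKOS8, where the difference was 0.08.

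IL2RG, the common gamma chain of lymphoid cells, was dim in every line and did not reach the filter. Its probe set read 3.95 in UWKOS1, 3.94 in UWKOS3 and 3.95 in UWKOS7, and 4.03 in UWKOS2, 4.23 in UWKOS6 and 4.05 in UWKOS8. The tumorigenic values all lay below the others, by a gap of only 0.07, and values at this level have no detection call. The difference was -0.16. IL2RG and PTPRC, both marks of leukocytes, were thus below the filter together.

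STAT6, the transcription factor that the receptors activate, overlapped between the groups. It read 7.02 in UWKOS1, 7.19 in UWKOS3 and 6.62 in UWKOS7, against 6.73 in UWKOS2, 6.99 in UWKOS6 and 7.31 in UWKOS8. The lowest value was that of a tumorigenic line and the highest that of a non-tumorigenic one, and the difference was -0.07; its sign turned without UWKOS7 and in other alternatives. An array measures the transcript of STAT6 and not its phosphorylation.

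JAK1, the kinase of the IL4R chain, was bright in every line and did not separate the groups on its brightest probe set. That probe set read 11.73 in UWKOS1, 12.15 in UWKOS3 and 12.20 in UWKOS7, and 12.13 in UWKOS2, 12.35 in UWKOS6 and 12.09 in UWKOS8, a difference of -0.16. UWKOS1 was the lowest line, and the others overlapped.

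The other 4 probe sets of JAK1 pointed the other way, by 0.09 to 0.64. On the probe set with the largest difference, the tumorigenic lines read 7.61, 7.81 and 7.58 in UWKOS1, UWKOS3 and UWKOS7. The non-tumorigenic lines read 7.37 in UWKOS2, 6.96 in UWKOS6 and 6.76 in UWKOS8. On another, which differed by 0.48, UWKOS8 and UWKOS6 again read lowest, at 8.77 and 8.82, and UWKOS2, at 9.12, nearly reached UWKOS1, at 9.15. The GAPDH end ratio was also highest in UWKOS6 and UWKOS8. Without these lines the differences of 0.64 and 0.48 were 0.30 and 0.26, and with the GAPDH end ratio as covariate 0.19 and 0.21. The cause of the JAK1 differences was not tested. The mean over the 5 probe sets differed by 0.25, opposite in sign to the brightest.

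TYK2, a second kinase of the type II receptor, had 4 probe sets, of which 1 passed the filter. It read 6.10 in UWKOS1, 6.37 in UWKOS3 and 6.53 in UWKOS7, against 6.40 in UWKOS2, 6.003 in UWKOS6 and 6.23 in UWKOS8. The groups overlapped and the difference was 0.13. Among the dim probe sets the differences were 0.19, -0.18 and -0.05, so the direction for TYK2 varied with the probe set. On that at -0.18 every tumorigenic line was lower, by a gap of only 0.04.

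**Figure D2:**
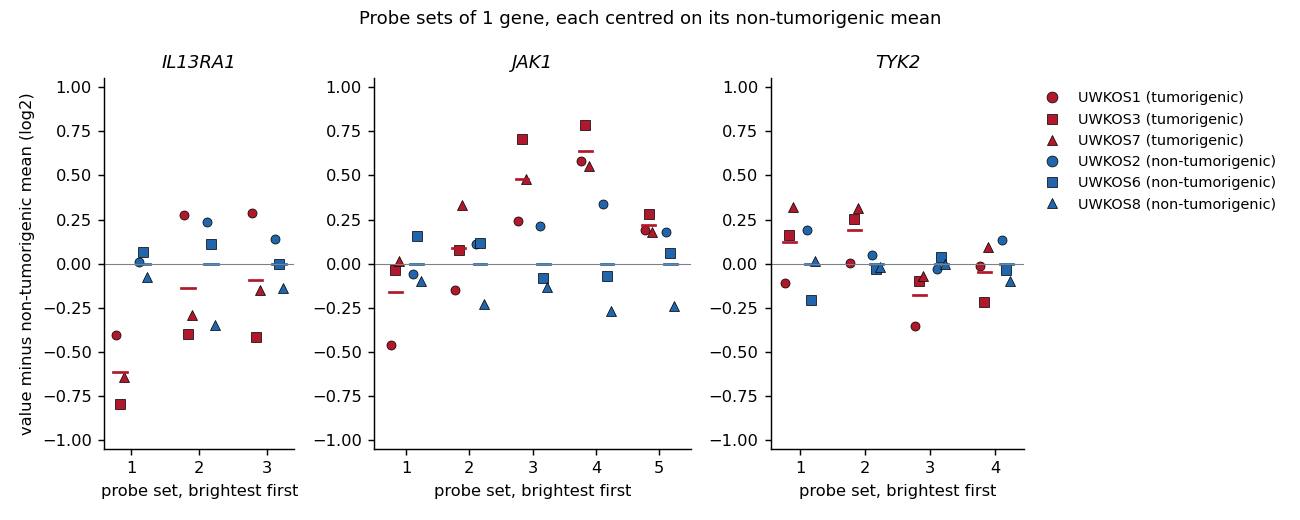
Values of each probe set of IL13RA1, JAK1 and TYK2 minus its mean in the non-tumorigenic lines (log2), brightest probe set first; points are lines and bars are group means. IL13RA1 separates the groups on its brightest probe set, and JAK1 on the probe sets numbered 3 and 4, in the opposite direction. TYK2 separates them on its dim probe set numbered 3, by a gap of only 0.04.

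Of the 16 probe sets, 12 passed the filter. Over all 16, the groups did not overlap on 6, in each direction on 3, and the same held for 29.2% of all non-control probe sets. No call is given for a member, since the contrast between the groups chose IL13RA2.

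The genes around the receptor chains were compared between the groups with limma, with Benjamini-Hochberg adjustment over all tested genes and a threshold of 0.05. That fit called 12.1% of all genes, and 12.0% of all probe sets at the probe set level. Over 8 lists of ligands, related receptors, kinases, regulators, adaptors and response genes, 110 of 123 genes were measured and 63 passed the filter. Of these 4 rose, 1 fell and 58 did not pass (limma), with a median difference of -0.11. Among all tested genes 7.5% rose and 4.63% fell. The called share of the 63 was 7.94%; its difference from that of all genes was not tested. Without UWKOS6, 0 of the 63 passed, while 12 of the 9145 genes did; likewise 0 of the 63 passed with an end ratio as covariate.

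The ligands, apart from IL5, were dim in these cultures. Of 10 measured cytokines, including IL4, IL13, IL33 and TSLP, 0 passed the filter. IL4 read between 3.93 and 4.26 in the 6 lines and IL13 between 3.63 and 4.13, with differences of -0.02 and -0.19. IL5, named after its values were seen, was higher in every tumorigenic than in any non-tumorigenic line and differed by 1.40, without passing in the fit with no filter (limma adjusted p = 0.128).

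Among the other receptor subunits that pair with the common gamma chain, IL7R rose, 0 fell and 2 of 3 tested did not pass. IL7R, a receptor chain for interleukin 7 and thymic stromal lymphopoietin, read 7.20 in UWKOS1, 7.37 in UWKOS3 and 7.11 in UWKOS7. It read 5.77 in UWKOS2, 6.02 in UWKOS6 and 5.86 in UWKOS8. The groups lay well apart, by a difference of 1.34 with an SE of 0.16 (limma adjusted p = 0.0144). A dim second probe set read 5.31, 5.92 and 5.31 in the tumorigenic and 3.12, 3.04 and 2.89 in the non-tumorigenic lines, so it too was higher in every tumorigenic line. IL2RB and IL21R, chains of lymphoid receptors, differed by -0.18 and 0.01. IL2RG, the partner of IL7R in the interleukin 7 receptor, was dim in the same lines, as given above.

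Of the other JAK and STAT genes STAT4 rose, 0 fell and 5 of 6 tested did not pass. STAT4, which carries interleukin 12 signals in lymphocytes, read 9.10 in UWKOS1, 8.75 in UWKOS3 and 9.15 in UWKOS7, against 7.05 in UWKOS2, 6.27 in UWKOS6 and 6.20 in UWKOS8. Every tumorigenic line was higher, and the difference was 2.49 with an SE of 0.27 (limma adjusted p = 0.0141). A second probe set differed by 2.14. STAT3, the transducer of interleukin 6 family signals, differed by -1.03 (limma adjusted p = 0.0825), and UWKOS7, at 7.74, was its lowest line. Its other tested probe sets differed by less, -0.82 and -0.42, and a dim one by -0.25. STAT5A and JAK2 differed by -0.55 and -0.41 without passing. Without UWKOS6, the adjusted p of both STAT4 and IL7R was 0.0713; both passed when any other single line was left out.

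Among 13 tested negative regulators of JAK-STAT signalling PTPN2 rose, 0 fell and 12 did not pass. PTPN2, a phosphatase of JAK1 and of STAT proteins, averaged 8.74 ± 0.40 (SD, n = 3) and 7.42 ± 0.42 (SD, n = 3), a difference of 1.32 (limma adjusted p = 0.0392). Another tested probe set differed by 1.18, and a dim one by -0.05. PTPN2 passed in only 1 of the 6 fits with a line left out, that without UWKOS7, and not in the fit with no filter on dim probe sets. With the GAPDH end ratio as covariate it differed by 0.55. The phosphatases PTPN11 and PTPN1 and the SUMO ligase PIAS2 differed by 0.64, 0.64 and 0.72 without passing. SOCS1, a feedback inhibitor that STAT6 induces, was dim and averaged 5.13 in both groups.

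In the list of receptor adaptors and the PI3K arm PIK3R1 fell, 0 rose and 8 of 9 tested did not pass. PIK3R1, a regulatory subunit of PI3-kinase, read 6.39 in UWKOS1, 7.13 in UWKOS3 and 6.98 in UWKOS7. It read 8.16 in UWKOS2, 9.86 in UWKOS6 and 9.96 in UWKOS8. The groups did not overlap and the difference was -2.50 with an SE of 0.51 (limma adjusted p = 0.0325). UWKOS2, whose GAPDH end ratio is lower than those of UWKOS6 and UWKOS8, lay closest to the tumorigenic lines. The difference was -1.37 with the GAPDH end ratio as covariate and -1.34 without UWKOS6 and UWKOS8. The cause of the PIK3R1 difference was not tested. Of the fits with 1 line left out, PIK3R1 passed only in that without UWKOS2. Its 2 dim probe sets differed by -0.34 and -0.63. The adaptors IRS2 and SHC1 differed by -0.50 and -0.97, and the kinase AKT1 by 0.65, none past the threshold.

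Among 9 tested relatives in the class I cytokine receptor family LIFR rose, 0 fell and 8 did not pass. LIFR, the receptor of leukaemia inhibitory factor, averaged 8.08 ± 0.37 (SD, n = 3) and 6.54 ± 0.36 (SD, n = 3), a difference of 1.54 (limma adjusted p = 0.0239). Its second probe set differed by 1.72. LIFR did not pass without UWKOS2, UWKOS3 or UWKOS6. IL11RA, CSF2RB and GHR differed by -0.57, -0.30 and 0.90 without passing. The GHR value rests on UWKOS2, at 6.14 against 7.99 to 9.19 elsewhere: it was 0.026 without that line, and 2.65 without UWKOS6 and UWKOS8.

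Of 25 measured genes known to respond to IL4 or IL13, 14 passed the filter and 0 passed the limma test, with a median difference of -0.21. Among these 14 the smallest p-values belonged to LOX (0.66), POSTN (-3.93), TGM2 (-0.27) and SPDEF (-0.25). POSTN, the matrix protein periostin, split the tumorigenic lines: it read 9.03 in UWKOS1 but 3.08 in UWKOS3 and 3.39 in UWKOS7. The non-tumorigenic lines read 9.26, 8.65 and 9.36 in UWKOS2, UWKOS6 and UWKOS8, so UWKOS1 was within their range. Without UWKOS1 POSTN passed downward. VCAM1, an adhesion molecule below the filter, was lower in every tumorigenic line and differed by -1.67, without passing in the fit with no filter (limma adjusted p = 0.0585).

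Several response genes were high in UWKOS1 alone and, like VCAM1, were named after their values were seen. The eotaxins CCL24 and CCL26 read 8.07 and 8.64 in UWKOS1, and at most 5.86 in any other line. SERPINB2, a protease inhibitor, read 8.39 there and at most 4.06 elsewhere. PPARG, a nuclear receptor, read 10.39 there and at most 5.78 elsewhere.

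Of 14 measured genes reported as IL13RA2 partners or downstream genes, 10 passed the filter and 0 passed the limma test, with a median difference of 0.0010. JUNB, PTPN1, JUN and TMEM219 had the smallest p-values, at differences of -0.51, 0.64, 0.74 and -0.52. CHI3L1, a chitinase-like ligand of IL13RA2, was dim and differed by -0.43, while TMEM219, its co-receptor, was above the filter. The matrix metalloproteinases MMP1 and MMP3, named after their values were seen, lay below the filter. MMP3 read 7.16 in UWKOS1, 6.11 in UWKOS3 and 5.51 in UWKOS7 and at most 3.74 in the other lines. It passed in the fit with no filter (limma adjusted p = 0.0267), and MMP1, at 10.73 in UWKOS1 and at most 5.26 elsewhere, did not (limma adjusted p = 0.238).

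**Figure D3:**
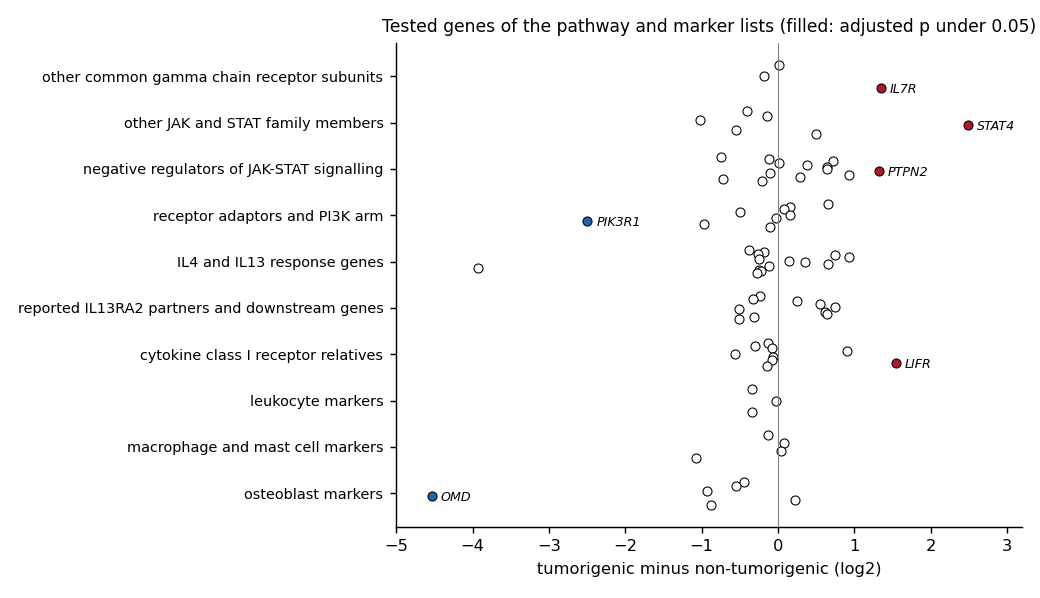
Log2 difference, tumorigenic minus non-tumorigenic, of each tested gene in the pathway and marker lists (n = 3 lines a group), 1 point a gene; filled points passed the limma test. IL7R, STAT4, PTPN2 and LIFR lie to the right, PIK3R1 and the bone matrix proteoglycan OMD to the left, and the other points are open.

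Of 3 tested leukocyte markers and 4 tested macrophage and mast cell markers, 0 passed the limma test. The leukocyte marker LCP1, below the filter, differed by -3.57, without passing in the fit with no filter (limma adjusted p = 0.0874). The median of the macrophage and mast cell list was 5.10 to 5.30 in the tumorigenic and 5.17 to 5.42 in the non-tumorigenic lines. FCER1A of that list, below the filter and named after its values were seen, read 8.13 in UWKOS2 and at most 5.68 elsewhere. CD68, a lysosomal protein of macrophages, differed by -1.07 and read 7.32 in UWKOS7, within the range of the non-tumorigenic lines. Of 6 tested osteoblast markers OMD fell, by 4.53, 0 rose and 5 did not pass. OMD did not pass without UWKOS2, UWKOS6 or UWKOS8, nor with an end ratio as covariate.

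Genes next to IL13RA2 on the X chromosome, in the order of the assembly UU_Cfam_GSD_1.0, did not share its pattern as a block. Of the 5 nearest measured genes on each side, PLS3 alone passed the filter, and it differed by -0.32. LRCH2, the next measured gene on 1 side, was higher in every tumorigenic line, at 5.95 in UWKOS1, 5.24 in UWKOS3 and 4.48 in UWKOS7 against 4.44, 4.10 and 4.01 in UWKOS2, UWKOS6 and UWKOS8. It differed by 1.04 and did not pass in the fit with no filter (limma adjusted p = 0.152). HTR2C, next on the other side, read between 2.78 and 3.03 in all lines.

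The genes most like IL13RA2 were picked by their match to its values over the 6 lines. That they too fell in steps from UWKOS3 to UWKOS1 to UWKOS7 follows from this choice and is no separate result. Among 1309 tested genes with a range of at least 2, the highest Pearson r over the 6 lines belonged to TTLL12 (0.997), ENY2 (0.991), ZNHIT6 (0.990), ANAPC10 (0.986) and FABP5 (0.985). RNF2, LYRM7, UTP20, TBL1XR1 and FLVCR1 followed, down to 0.981. All share the same 6 arrays, and a group difference alone can give a high r: 117 genes had an r of at least 0.9. FABP5, a fatty acid-binding protein, came nearest in size, at 12.34, 13.32 and 10.91 in UWKOS1, UWKOS3 and UWKOS7 against 7.70, 8.62 and 8.32 in UWKOS2, UWKOS6 and UWKOS8.

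The most opposite profiles were those of TMEM59L (-0.996), ACTA1 (-0.993), DKK3 (-0.993), DAB2 (-0.993) and SDC2 (-0.989). DAB2, an endocytic adaptor, read 8.59 in UWKOS1, 7.75 in UWKOS3 and 10.11 in UWKOS7, and between 12.17 and 12.61 in the other lines. In all, 503 of the 9145 genes held the order UWKOS3, UWKOS1, UWKOS7 with every tumorigenic line above the non-tumorigenic ones.

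**Figure D4:**
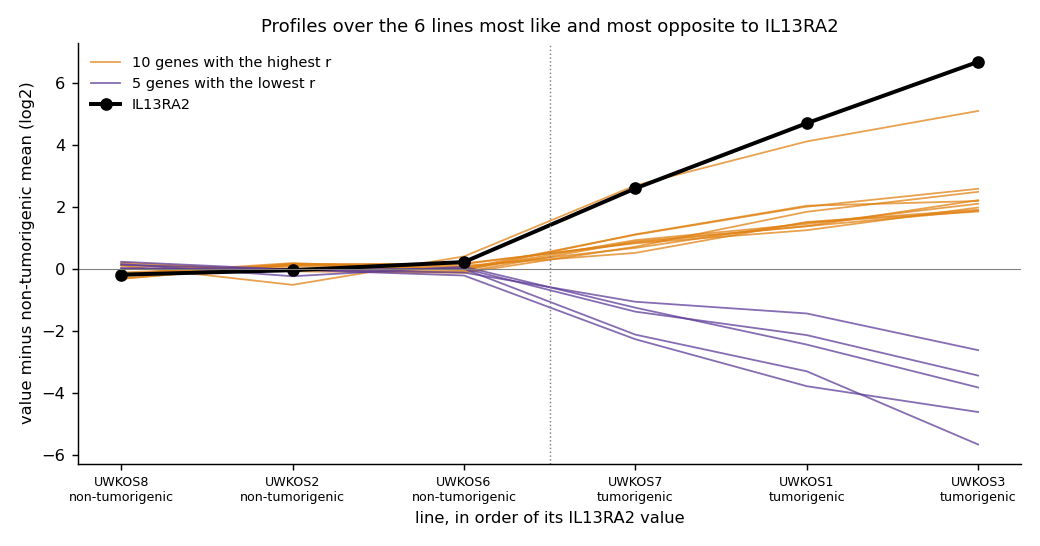
Value minus the non-tumorigenic mean (log2) across the lines, ordered by IL13RA2; black is IL13RA2, orange the 10 genes with the highest and purple the 5 with the lowest Pearson r. IL13RA2 rises from UWKOS7 to UWKOS3, and among the orange lines FABP5 comes closest to its size.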

How the data were processed

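Total RNA from 6 lines was labelled and hybridised to Affymetrix canine arrays, per the labels' protocols. The submitters' processing notes name MAS5 and no other tool, and the summary method is not settled here. The authors' deposited values are log2, with array medians of 6.03 to 6.05, and entered unchanged. There were no detection calls, and precision is limited by the number of arrays.

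Of 42924 non-control probe sets, 29254 had 1 gene symbol in the platform annotation. For 27680 of these the symbol was brought up to date by gene identifier from RefSeq's genes of UU_Cfam_GSD_1.0. Tested were the 21462 probe sets at or above the median of mean values, 6.07, and for genes the brightest of them, 9145 in all. Groups were compared with limma 3.58.1 (lmFit, eBayes, no covariate) in R 4.3.3 and Benjamini-Hochberg adjustment. The fit was tested on simulated data. It recovered 12 of 50 probe sets with a difference of 1 log2 unit, 36 of 50 with 2, 48 of 50 with 4 and 46 of 50 with 6. It also called 9 of 21262 with no difference. Most differences of 1 were thus missed there, so a gene that did not pass is not shown to be unchanged.

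The members and gene lists were chosen with earlier results of these data known. Named genes were all members, up to 4 genes of smallest p in each list, the 10 genes most like and 5 most opposite to IL13RA2, and its nearest measured neighbours. Alternatives covered the filter, normalization, centring, variance trend, array weights, end-ratio covariates, the mean of probe sets and lines left out. The end ratio of the other GAPDH pair and the mean of 4 control end ratios as covariates were added after the data were seen. The planned offsets for linear values did not apply. No line was arrayed more than once, so p-values measure the spread between these lines.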

Additional observations from a re-analysis of the deposited data

How the results depend on the processing

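No paired analysis was possible because the labels match no tumorigenic line to a non-tumorigenic one. The limma fit called 2580 probe sets, 1109 genes and 5 pathway genes. With array weights 3895 probe sets passed. With the GAPDH end ratio as covariate 7 probe sets, 2 genes and 0 pathway genes passed, with that of the other GAPDH pair 27, 10 and 0, and with the mean of 4 control end ratios 25, 11 and 0. Without UWKOS6 and UWKOS8 these counts were 9, 1 and 0, with UWKOS2 alone in its group and assumed to vary like the tumorigenic lines. With the upper-quartile filter, which tested 22 pathway genes, 2 passed. With each line left out in turn, 52 (without UWKOS6) to 3169 (without UWKOS7) probe sets, 12 to 1313 genes and 0 to 5 pathway genes passed. The causes were not tested.

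The IL13RA2 difference was 3.66 to 5.70 with a line left out and 2.89 with the GAPDH end ratio as covariate. Its sign carries no support, since IL13RA2 was chosen for being higher in tumorigenic lines. With its groups 2.38 apart, no line left out could turn that sign. That of IL13RA1 was -0.72 to -0.52 with a line left out and -0.28 as the mean of probe sets. The IL4R difference, -0.11, was 0.086 with the mean end ratio, 0.15 with the GAPDH end ratio and 0.077 without UWKOS6 and UWKOS8. The IL2RG difference was -0.23 with 75th percentile centring, and the JAK1 difference 0.25 as the mean of probe sets. STAT6 ranged from -0.21 to 0.21 and TYK2 from -0.07 to 0.24 over the alternatives, so neither has a settled direction. The dim values of IL2RG and of IL13RA2 in the non-tumorigenic lines have no detection call, which limits what can be said of their size.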
